A study of Mus musculus with 31 samples.

Results

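The probe sets described here report genes of the mouse major histocompatibility complex (MHC) and of antigen presentation. They were chosen by gene symbol: every probe set with a symbol beginning with H2-, and every probe set whose single symbol was B2m, Tap1, Tap2, Tapbp, Cd74 or Ciita. This gave 58 of the 12422 probe sets that are not array controls. Of the 58, 47 had 1 symbol and 11 had several, and together they carried 43 distinct symbols. By role, 41 belonged to class I, 14 to class II and 3 to genes that carry an H2- symbol but belong to neither arm. The cells were D10.G4.1, a clone of mouse T cells of the type 2 helper kind. In each comparison, cells given neuromedin U (NmU), a neuropeptide, were set against cells given phosphate-buffered saline (PBS) for the same time. Arrays were made at 0.8, 3, 6 and 12 h, with 4 arrays in each group except NmU at 3 h, which had 3, so that 31 arrays of total RNA entered. All arrays come from this 1 clone, and the labels name no genotype, dose or further stimulus.

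MHC class I molecules are made of a heavy chain, here encoded by H2-K and H2-D genes, and of beta-2 microglobulin, the product of B2m. Peptides cut by the proteasome are carried into the endoplasmic reticulum by the transporter Tap1/Tap2 and are loaded with the help of tapasin (Tapbp). Nearly all nucleated cells carry class I molecules. Class II molecules are made of an alpha and a beta chain (H2-A and H2-E genes), travel with the invariant chain Cd74, exchange its fragment for peptide with the help of H2-DM, and depend on the transactivator Ciita. They belong to B cells, macrophages and dendritic cells, and resting mouse T cells are known to make little or none.

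Signals are the deposited probe set intensities on a linear scale. Signals of different probe sets do not give relative amounts of their transcripts, because probes differ in brightness. The lowest 20% of all values, those under 5.8, were set to 5.8 (the floor), and log2 was taken. A probe set was tested if its mean log2 signal in some group exceeded that of the lowest 40%, which corresponds to 20.3. In all, 7922 probe sets were tested, among them 44 of the 58: 34 of 41 in class I, 8 of 14 in class II and 2 of the other 3. The 14 others were too dim for a test. Of the 44, 41 exceeded the filter in all 8 groups, H2-DMb2 (101868_i_at) in 4 groups, and H2-DMa (162346_f_at) and H2-M10.1 (100303_at) in 1 group each. A change was called at an adjusted p under 0.05 (limma with Benjamini-Hochberg adjustment over the 7922). The labels leave unsaid whether replicates came from separate cultures, so the p-values measure only how far these samples differ, possibly for technical reasons, and the number of arrays limits the precision.

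The arrays of a group were alike, with mean correlations of an array with the others of its group between 0.956 and 0.977 across probe sets, and no array repeated another (0 identical pairs). The lowest belonged to PBS 3 h replicate 4, and calls at 3 h that change without it are given beside the results. Each gene of the marker and pathway lists used here is read from 1 probe set. It is the brightest on average of those carrying that symbol alone, and other probe sets of these genes were not examined. T cell markers were bright, with median signals of 1437.2 for Cd3d, 282.6 for Cd4 and 2204.2 for Gata3, whereas Thy1 and Cd5 lay at or below the floor on 20 and 14 of the 31 arrays. Markers of other cells were mixed. Of 13 macrophage markers, all with a probe set, Itgam lay at or below the floor on 31 of 31 arrays, Marco on 30, Lyz2 on 28 and Adgre1 on 26, whereas 7 never reached the floor, the brightest being Mpeg1 (median 263.3) and Cd14 (70.9). Of 11 B cell markers with a probe set, of 13 listed, Cr2 lay at or below the floor on 30 arrays, whereas 5 never reached it, led by Cd79a (61.1) and Ms4a1 (41.7). Of 7 dendritic cell markers of 10 listed, 5 never reached it, led by Fscn1 (226.0) and Itgax (100.5), and Ccl17 lay there on 24. Of 7 cytotoxic T and NK cell markers of 8 listed, Cd8a and Ncr1 lay there on 26 arrays each and Cd8b1 on 25, whereas Gzmb had a median of 2175.4. Summed over its list, the T cell signal lay between 11206.3 and 16836.1 on NmU arrays and between 9322.0 and 11355.6 on PBS arrays. At each of the 4 times this sum was higher on every NmU array than on every PBS array. The sum includes the cytokine Il4, whose log2 fold changes were 1.82, 2.70, 1.89 and 1.21 at 0.8, 3, 6 and 12 h. The median log2 fold changes of the tested T cell markers were 0.10, 0.26, 0.12 and 0.18. The sum without Il4 was not examined, so its separation is not read as a difference in T cell content. Among T cell markers limma called Il4 higher with NmU at all 4 times, Zap70 at 3 and 6 h and Gata3 at 3 h. The calls of Il4 held in all 39 other settings, those of Zap70 in 38 and 36 and that of Gata3 in 36. The B cell sum lay between 154.0 and 268.5 on NmU arrays and between 167.4 and 309.6 on PBS arrays. The macrophage sum was 416.7 to 613.4 on NmU arrays and 345.8 to 688.3 on PBS arrays, and the dendritic cell sum 421.7 to 809.3 on NmU arrays and 404.3 to 601.9 on PBS arrays. The cytotoxic sum was 1740.6 to 3474.4 on NmU arrays and 1519.0 to 3629.9 on PBS arrays. These ranges pool the 4 times. Sums of the pathway lists are not described here. Among the marker lists other than that of T cells, NmU and PBS sums at single times overlapped except in the following cases. The dendritic cell sum at 6 h was 502.2 to 626.0 with NmU, against 450.9 to 483.6 with PBS. At 12 h the cytotoxic sum was 2230.1 to 2524.5 with NmU, against 1519.0 to 1900.1 with PBS. Their part in the MHC values was not tested. In a bulk sample, fewer cells of a kind and less RNA per cell cannot be told apart.

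The region before the start of transcription is where class I and class II genes are controlled, and the windows of 5 genes are shown because the results below turn on them or contrast with them. Each window runs from 250 bases before to 50 bases after a start listed by RefSeq on build GRCm38.p6, all 5′ to 3′ on the strand of the gene. Tap1 lies at chr17:34187306-34187605 on the plus strand, H2-T22 at chr17:36042693-36042992 on the minus strand, and H2-K1 at chr17:34000298-34000597 on the minus strand. B2m lies at chr2:122147437-122147736 on the plus strand and H2-Aa, a class II gene, at chr17:34287774-34288073 on the minus strand. Capitals mark matches, on either strand, to 4 motifs searched: GAAA, 2 bases of any kind and GAAA again, the type of repeat bound by interferon regulatory factors; CCAAT, bound by NF-Y; GGGGA, any base and TCCCC, a palindrome of the NF-kB type; and TGACG, the core of the site bound by CREB family factors.
Tap1: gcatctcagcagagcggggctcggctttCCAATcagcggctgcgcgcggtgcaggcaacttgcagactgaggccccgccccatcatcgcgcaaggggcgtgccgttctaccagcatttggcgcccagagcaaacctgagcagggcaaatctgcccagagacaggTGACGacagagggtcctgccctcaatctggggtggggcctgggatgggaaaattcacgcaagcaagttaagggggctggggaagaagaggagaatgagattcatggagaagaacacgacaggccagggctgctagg
H2-T22: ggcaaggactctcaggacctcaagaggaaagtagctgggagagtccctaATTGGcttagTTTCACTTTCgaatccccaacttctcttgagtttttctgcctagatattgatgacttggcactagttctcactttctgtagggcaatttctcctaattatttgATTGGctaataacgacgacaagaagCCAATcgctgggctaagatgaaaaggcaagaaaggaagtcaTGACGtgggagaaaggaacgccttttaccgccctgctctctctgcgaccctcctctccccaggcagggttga
H2-K1: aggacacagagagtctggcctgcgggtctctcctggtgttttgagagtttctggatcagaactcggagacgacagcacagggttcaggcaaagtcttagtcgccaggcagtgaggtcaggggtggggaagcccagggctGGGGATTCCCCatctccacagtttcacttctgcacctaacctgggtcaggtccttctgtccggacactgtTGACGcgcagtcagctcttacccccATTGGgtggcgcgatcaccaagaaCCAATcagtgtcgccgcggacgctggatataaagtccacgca
B2m: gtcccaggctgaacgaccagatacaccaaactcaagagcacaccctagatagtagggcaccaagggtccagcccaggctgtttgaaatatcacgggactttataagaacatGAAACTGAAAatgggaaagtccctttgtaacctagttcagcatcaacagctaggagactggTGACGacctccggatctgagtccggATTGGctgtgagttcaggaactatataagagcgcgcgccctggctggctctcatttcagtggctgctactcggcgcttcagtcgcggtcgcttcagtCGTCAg
H2-Aa: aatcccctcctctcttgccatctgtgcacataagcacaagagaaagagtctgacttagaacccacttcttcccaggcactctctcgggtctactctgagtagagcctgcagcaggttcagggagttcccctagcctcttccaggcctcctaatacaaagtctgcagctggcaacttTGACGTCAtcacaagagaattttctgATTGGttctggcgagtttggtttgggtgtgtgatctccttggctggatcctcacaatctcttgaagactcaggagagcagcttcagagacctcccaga

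Among the 58 probe sets, 27 genes with a single location had a window. The search left out Cd74. CCAAT was found in 27 of the 30 windows (25 of 27 genes), against 37.4% of all 32851 windows of the same length. TGACG was found in 12 of 30 windows (11 of 27 genes), against 20.8%. The NF-kB type palindrome was found in 3 of 30 windows, those of 2 genes, H2-K1 and H2-D1, and in 0.0487% of all windows. The interferon type repeat was found in 3 of 30 windows (3 genes), against 3.44% of all, and B2m and H2-T22 were among these genes. In H2-Aa 2 overlapping TGACG matches on opposite strands form a single capital run. The Tap1 window shares 275 bases with that of Psmb9, a subunit of the immunoproteasome that is transcribed in the opposite direction, and their starts lie 226 bases apart. These matches are descriptions of letters and were not tested for binding.

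Class I signal was high and class II signal was low in this clone, in NmU and PBS cells alike. Of the class I probe sets, 15 had a mean signal over 1000, whereas the highest mean of any class II probe set was 98.7 and 2 of the 14 class II probe sets had a mean under the floor of 5.8. The class II probe sets spanned the dim range: 8 of the 14 never reached the floor, and 5 had medians above the median of every array (34.4 to 43.3). The brightest class I probe set was H2-K1 (93120_f_at), which encodes a classical heavy chain and lay between 6611.1 and 9201.6 with a median of 7648.3. For H2-D1, the second classical heavy chain, the 3 probe sets had medians of 6740.2, 6365.4 and 3060.7. B2m, the light chain shared by all class I molecules, lay between 5039.9 and 7649.5 with a median of 6595.1. Tap1 and Tap2, which together form the peptide transporter, had medians of 957.5 and 605.7, and the 3 probe sets of Tapbp 2352.2, 796.0 and 296.1. The non-classical class I genes ranged more widely. The probe set shared by H2-Q9, H2-Q7 and H2-Q5 (98438_f_at) had a median of 6290.2. The pair shared by H2-T9, H2-T22 and H2-T10 had medians of 3427.7 and 2557.0. The one shared by H2-T23 (the Qa-1 antigen, a ligand of an inhibitory NK cell receptor) and the pseudogene H2-T-ps had 529.2. H2-M3, which presents formylated peptides of bacteria and mitochondria, had medians of 204.8 and 35.4 on its 2 probe sets.

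Of the 5 class II chain probe sets, only that of H2-Eb1 passed the filter, at 13.8 to 82.5. H2-Aa lay between 2.9 and 6.8 and was at or below the floor on 25 of 31 arrays. H2-Ab1 lay between 4.7 and 21.4 and was at the floor on 10 arrays, H2-Ea between 1.2 and 17.4 on 18 arrays, and H2-Eb2 between 1.0 and 13.8 on 24 arrays. These alpha and beta chains therefore have no change to report. The loading factors were also dim: H2-DMa (93092_at) had a median of 100.5, H2-DMb1 72.0 and H2-Oa, a chain of an inhibitor of H2-DM, 55.4, while H2-Ob, its partner, had 8.4. Cd74 had a median of 57.3 and Ciita of 28.4. Several genes had probe sets that disagreed in level. The H2-D4 family probe set (101653_f_at) had a median of 988.9 while its other probe set (101652_i_at) was at or below the floor on 30 of 31 arrays, and a further H2-K1 probe set (97700_at) had a median of 46.0. The _f_at suffix, which 18 of the 58 carry, marks probes that match several members of a gene family, so that these signals cannot be assigned to 1 gene.

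**Figure D1:**
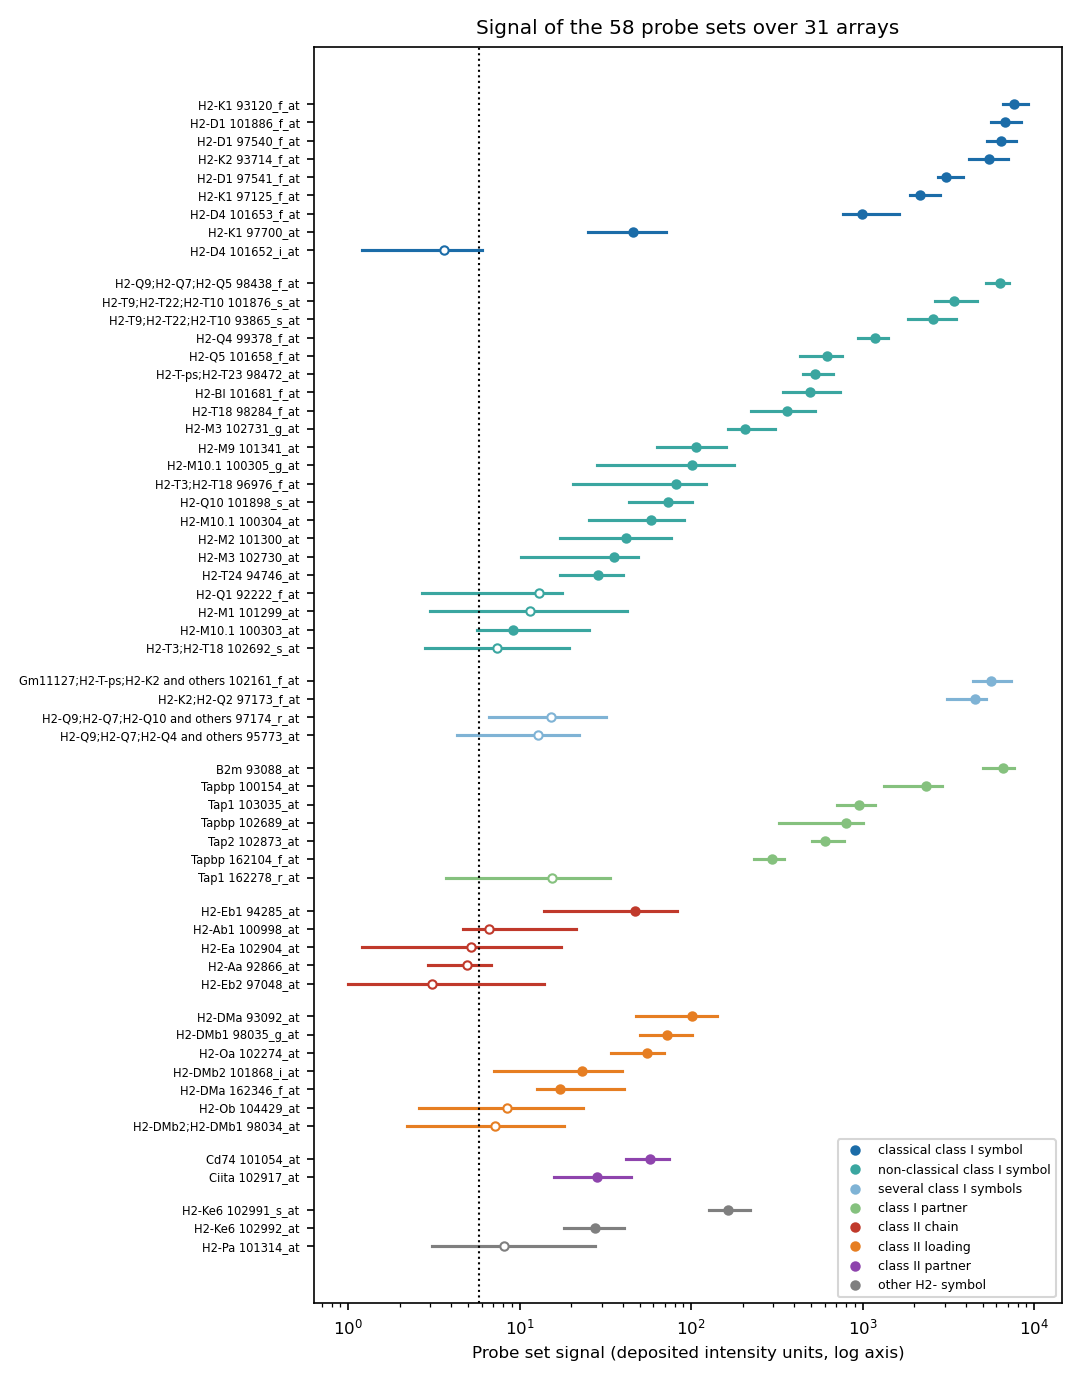
Signal of each of the 58 probe sets in deposited intensity units on a log axis, grouped and coloured by role. Points are medians and lines run from the lowest to the highest of 31 arrays, open points were not tested, and the dotted line is the floor of 5.8. Class I probe sets reach a median of 7648.3 (H2-K1), while H2-Aa, H2-Ea and H2-Eb2 have medians under the floor.

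Few of these probe sets were called at any time. The share called was below that of all tested probe sets at 3 and 6 h and above it at 12 h. At 0.8 h 0 of 44 lies near the share of all. At 0.8 h limma called 0 of the 44 tested probe sets, against 0.846% of all 7922. An unadjusted p under 0.05 was found for 3 (6.82%), against 6.8% of all. Among these 3 was H2-M10.1 (100303_at), which passed the filter only through the PBS 0.8 h group. At 3 h limma called 1, against 10.2% of all, and 3 (6.82%) had an unadjusted p under 0.05, against 24.1%. At 6 h it called 0, against 4.89%, and 2 (4.55%) had an unadjusted p under 0.05, against 17.4%. At 12 h it called 2, against 1.26%, and 8 (18.2%) had an unadjusted p under 0.05, against 11.2%. By direction, 0.783%, 4.44%, 2.85% and 0.858% of all tested probe sets rose and 0.0631%, 5.73%, 2.03% and 0.404% fell at 0.8, 3, 6 and 12 h, while of the 44 only 1 rose, at 12 h, and 2 fell, 1 at 3 h and 1 at 12 h. The ranges of NmU and PBS arrays did not overlap for 1, 2, 1 and 4 of the 44 at 0.8, 3, 6 and 12 h, against 5.02%, 18.7%, 12% and 7.5% of all. Without PBS 3 h replicate 4, 7 of the 44 did not overlap at 3 h, against 29.6% of all. A moderated F test for a change at any time called 0 of 44, against 11.6% of all, with a lowest adjusted p of 0.0502 and 6 at an unadjusted p under 0.05, against 24.3%. The F test for an effect that differed between times called 0, against 4.04%, with a lowest adjusted p of 0.14 in limma and 4 at an unadjusted p under 0.05, against 16.3%. Time in PBS alone called 0, against 0.0126%, with a lowest adjusted p of 0.426 and 1 at an unadjusted p under 0.05, against 8.75%.

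The class medians lay near 0 at every time. For the 34 class I probe sets the median log2 fold change was -0.01, -0.00, -0.06 and 0.01 at 0.8, 3, 6 and 12 h. For the 8 class II probe sets it was 0.05, -0.13, -0.02 and 0.13, and for all 7922 it was -0.04, -0.03, 0.02 and -0.02. Of the 34 class I probe sets, 15, 17, 13 and 19 had positive values at the 4 times, and of the 8 in class II, 7, 2, 3 and 6. The 8 include H2-DMa 162346_f_at, which passed the filter only through the NmU 12 h group. The class II median and count at 12 h are therefore in part set by the filter. The 34 include H2-M10.1 100303_at, which passed only through the PBS 0.8 h group, and this bears in the same way on class I at 0.8 h. The signs of some of these medians were not stable: without PBS 3 h replicate 4 that of class I at 3 h was -0.09, and leaving out 1 array at a time put that of class II between -0.10 and 0.16 at 0.8 h, between -0.21 and -0.02 at 3 h, between -0.09 and 0.07 at 6 h and between 0.03 and 0.29 at 12 h.

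**Figure D2:**
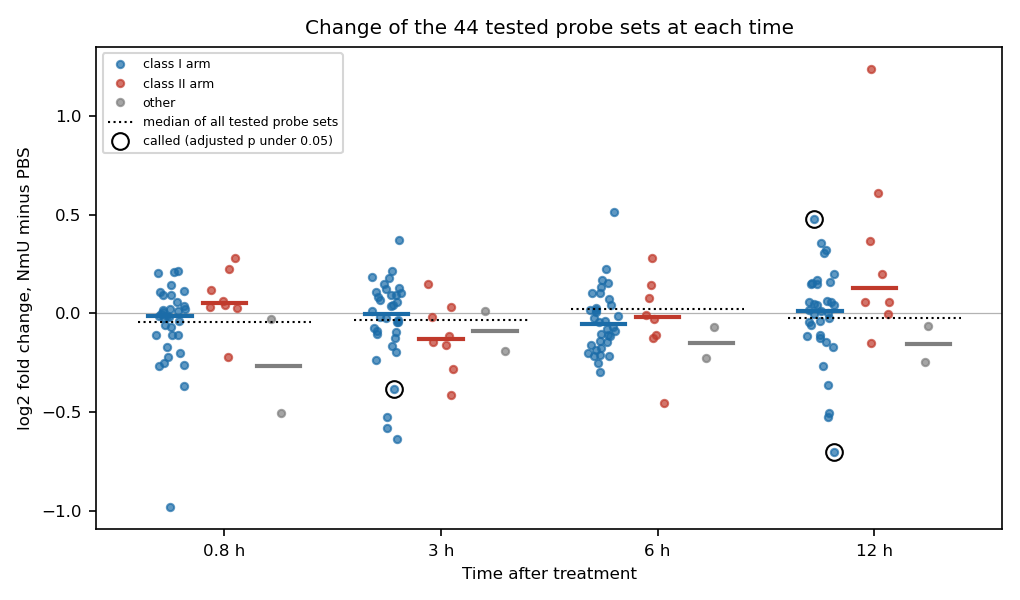
Log2 fold change (NmU minus PBS) of the 44 tested probe sets at each time, for the class I arm, the class II arm and the other H2- symbols. Points and medians include H2-DMa 162346_f_at, which passed the filter only through NmU 12 h, and H2-M10.1 100303_at, only through PBS 0.8 h. Thick bars are the medians of each arm, the dotted line is the median of all 7922 tested probe sets, and open circles mark the 3 called values: Tap1 at 3 h, and at 12 h the H2-T9, H2-T22 and H2-T10 probe set above 0 and H2-T24 below it.

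The light chain and the classical heavy chains were not called at any time. B2m signals were 6334.4, 6898.4, 6713.0 and 5312.5 with NmU at 0.8 h, against 6015.9, 7649.5, 6909.4 and 6604.2 with PBS. At 12 h they were 5976.3, 7511.1, 6070.8 and 7352.3 with NmU, against 5732.0, 6766.3, 5984.1 and 5684.9 with PBS. The ranges of the groups overlapped at all 4 times. The log2 fold changes of B2m were -0.11, 0.11, -0.04 and 0.15 at 0.8, 3, 6 and 12 h, and the 95% interval of the last ran from -0.09 to 0.39. For the bright H2-K1 probe set they were -0.07, 0.06, -0.14 and 0.02, with an interval at 12 h of -0.21 to 0.24. For H2-D1 (101886_f_at) they were -0.06, -0.10, -0.19 and 0.06, and at 6 h the arrays read 6535.8, 8027.7, 6571.4 and 5607.5 with NmU, against 7904.1, 8378.8, 6880.1 and 7114.1 with PBS. NmU arrays at 6 h both lay below and reached into the PBS range, and the change was not called (adjusted p = 0.362, limma).

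Among the bright class I probe sets, those with the _f_at suffix tended to move together from array to array. Of all 15 class I probe sets with a mean over 1000, 14 had positive log2 fold changes at 12 h as deposited. The count was 15 after scaling arrays to a common median and 8 after quantile normalisation, so that their direction depends on the scaling. At 6 h 3 of the 15 were positive as deposited, and 9 after quantile normalisation. The deviations of the 11 bright _f_at sets from their group means had a median pairwise correlation of 0.38 (from -0.35 to 0.93) over the 31 arrays, against 0.01 for all pairs of tested probe sets. These pairs share arrays, cross-matching probes and brightness. Averaged over the 11, an array stood between -0.20 (NmU 6 h replicate 4) and 0.22 (NmU 6 h replicate 2) from its group mean on the log2 scale. The 2 extremes thus fell within 1 group.

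**Figure D3:**
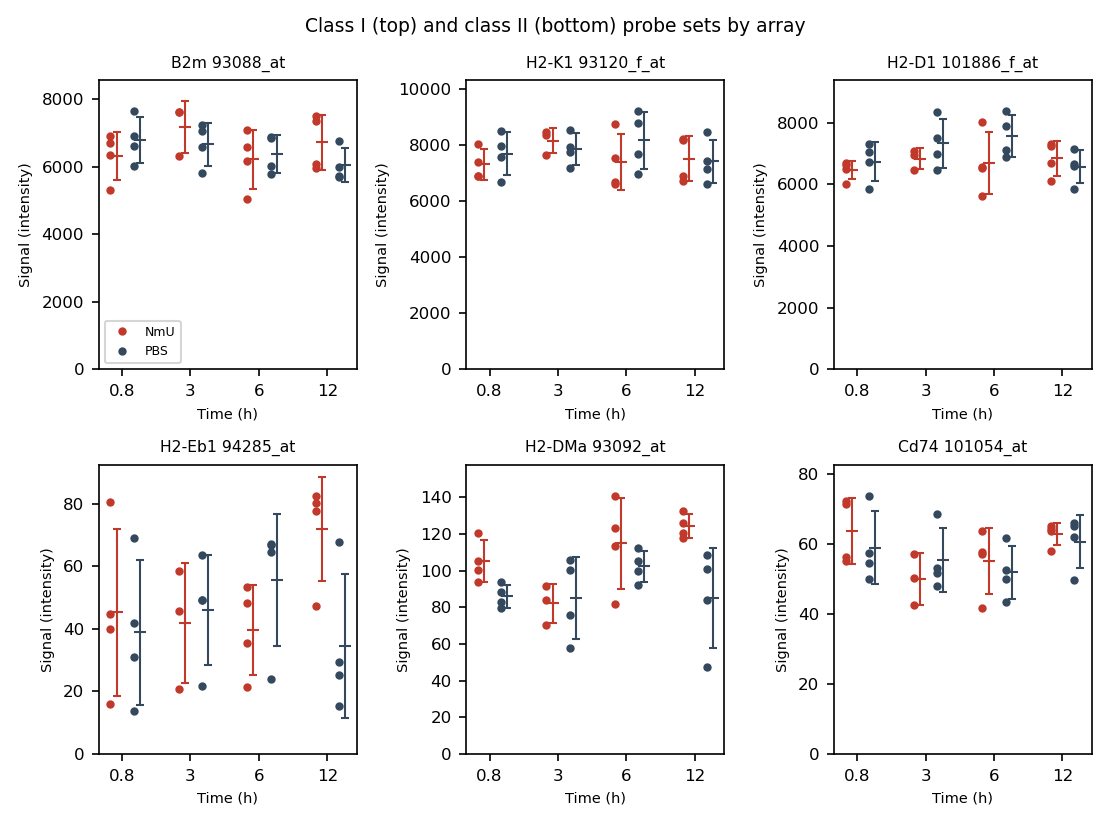
Signal on each array for B2m, H2-K1 and H2-D1 (class I, top) and H2-Eb1, H2-DMa and Cd74 (class II, bottom), in deposited intensity units on linear axes from 0. Points are arrays, NmU left of PBS at each time, with means and SD beside them; none of the 6 was called at any time, and NmU and PBS ranges of H2-DMa separated at 12 h.

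Tap1, which encodes 1 chain of the peptide transporter, fell at 3 h. Its signals (103035_at) were 704.1, 798.7 and 781.3 with NmU, against 1131.9, 937.9, 1173.9 and 773.8 with PBS. Only PBS replicate 4 reached into the NmU range. The log2 fold change was -0.38 (SE 0.12, adjusted p = 0.0483, limma), from means of 761.4 ± 50.4 with NmU (SD, n = 3) and 1004.4 ± 184.9 with PBS (SD, n = 4). Without PBS 3 h replicate 4 it was -0.50 (adjusted p = 0.00487, limma), and the count of called probe sets at 3 h was 2 in place of 1, both of them lower with NmU. Of all probe sets in that fit 11.6% were called, 4.98% higher and 6.59% lower. The second was H2-D4 (101653_f_at), named after its value was seen, at -0.68 (adjusted p = 0.0274 in that limma fit, against 0.105 with all arrays). The call of Tap1 was weak in other ways: it was lost on leaving out any 1 of 25 of the 31 arrays, with adjusted p-values up to 0.182 and a log2 fold change between -0.50 and -0.30 throughout. It was also lost with only the 3 h groups in the limma fit (adjusted p = 0.308), with arrays scaled to a common median (0.131) and with no filter on dim probe sets (0.0536). At 0.8, 6 and 12 h the log2 fold changes of Tap1 were 0.09, -0.21 and 0.04, none of them called. The second Tap1 probe set (162278_r_at), at 3.7 to 33.7, was too dim to be tested.

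Tap2, the other chain, was not called at any time. At 6 h its signals were 602.1, 540.7, 533.9 and 512.3 with NmU, against 655.6, 694.4, 646.1 and 685.2 with PBS. All 4 NmU arrays lay below all 4 PBS arrays, with a log2 fold change of -0.29 (SE 0.11, adjusted p = 0.115, limma). At 3 h the log2 fold change was -0.19 and the ranges overlapped. Without PBS 3 h replicate 4 it was -0.30, without overlap and without a call (adjusted p = 0.0797, limma). The 3 probe sets of Tapbp had log2 fold changes between -0.11 and 0.15 over the 4 times, none of them called.

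The proteasome supplies the peptides that Tap1 and Tap2 carry, and Psmb8, Psmb9 and Psmb10 are the catalytic subunits that replace the constitutive ones in the immunoproteasome. Psmb8 fell at 3 and 6 h. At 3 h its signals were 3038.2, 3009.6 and 3096.3 with NmU, against 4020.6, 3734.5, 4074.4 and 4107.8 with PBS, a log2 fold change of -0.39 (SE 0.09, adjusted p = 0.0054, limma). No NmU array reached the PBS range. At 6 h they were 3205.9, 3460.1, 2768.5 and 2709.9 with NmU, against 3769.3, 4069.7, 3816.1 and 3690.2 with PBS (log2 fold change -0.34, adjusted p = 0.0142, limma). The 6 h call was lost without PBS 6 h replicate 2 (adjusted p = 0.0582, limma), NmU 6 h replicate 3 (0.0695) or NmU 6 h replicate 4 (0.0516). Fitted with only the groups compared, limma gave an adjusted p of 0.127 at 3 h and 0.146 at 6 h, and scaling to a common median gave 0.0752 at 3 h.

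Psmb9, whose promoter window overlaps that of Tap1, fell at 6 h. Its signals were 1747.6, 1916.0, 1753.4 and 1905.0 with NmU, against 2491.6, 2454.1, 2398.4 and 2520.9 with PBS, without overlap. The log2 fold change was -0.43 (SE 0.10, adjusted p = 0.011, limma), and the call held in all 39 other settings run. At 3 h its signals were 1545.3, 1967.9 and 2036.6 with NmU, against 2590.4, 2246.8, 2258.5 and 1749.2 with PBS, overlapping through PBS replicate 4, and the log2 fold change of -0.25 was not called (adjusted p = 0.146, limma). Without that array it was -0.36 and was called (adjusted p = 0.0183, limma), without overlap. Psmb10 was not called, with log2 fold changes of -0.25 at 3 h and -0.36 at 6 h (adjusted p = 0.21 and 0.0609, limma). At 12 h the values were -0.11 for Psmb8, 0.04 for Psmb9 and -0.22 for Psmb10, none of them called.

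Of the list of class I processing genes to which these belong, 16 of 20 had a probe set and 15 were tested. None rose at any time; 0, 1, 2 and 0 fell at 0.8, 3, 6 and 12 h, and all of these were Psmb8 or Psmb9. Of all tested probe sets, 0.0631%, 5.73%, 2.03% and 0.404% fell, so that 1 of 15 at 3 h lies near the share of all. Without PBS 3 h replicate 4, 2 of the 15 fell at 3 h (Psmb8 and Psmb9), against 6.59% of all in that fit. The median log2 fold changes of the list were 0.05, -0.04, -0.12 and 0.08, beside -0.04, -0.03, 0.02 and -0.02 for all tested probe sets. The calreticulin (Calr) probe set lay between 0.5 and 14.9 and was not tested. For class II processing, which covers cathepsins, the thiol reductase Ifi30 and lysosomal proteins, 12 of 16 genes were tested and 0 were called at any time with all arrays, with medians of 0.02, -0.15, -0.16 and -0.04. Without PBS 3 h replicate 4, 3 of the 12 were called lower at 3 h, the cathepsins Ctsd (-0.53), Ctse (-0.69) and Ctsh (-0.40), with adjusted p-values of 0.0288, 0.00665 and 0.0293 by limma, against 0.063, 0.299 and 0.458 with all arrays. Cathepsin S (Ctss), which trims the invariant chain, lay between 1076.3 and 1864.4, in contrast to the class II chains themselves. Of the MHC-like molecules outside the complex, 3 of 15 were tested and 0 were called.

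**Figure D4:**
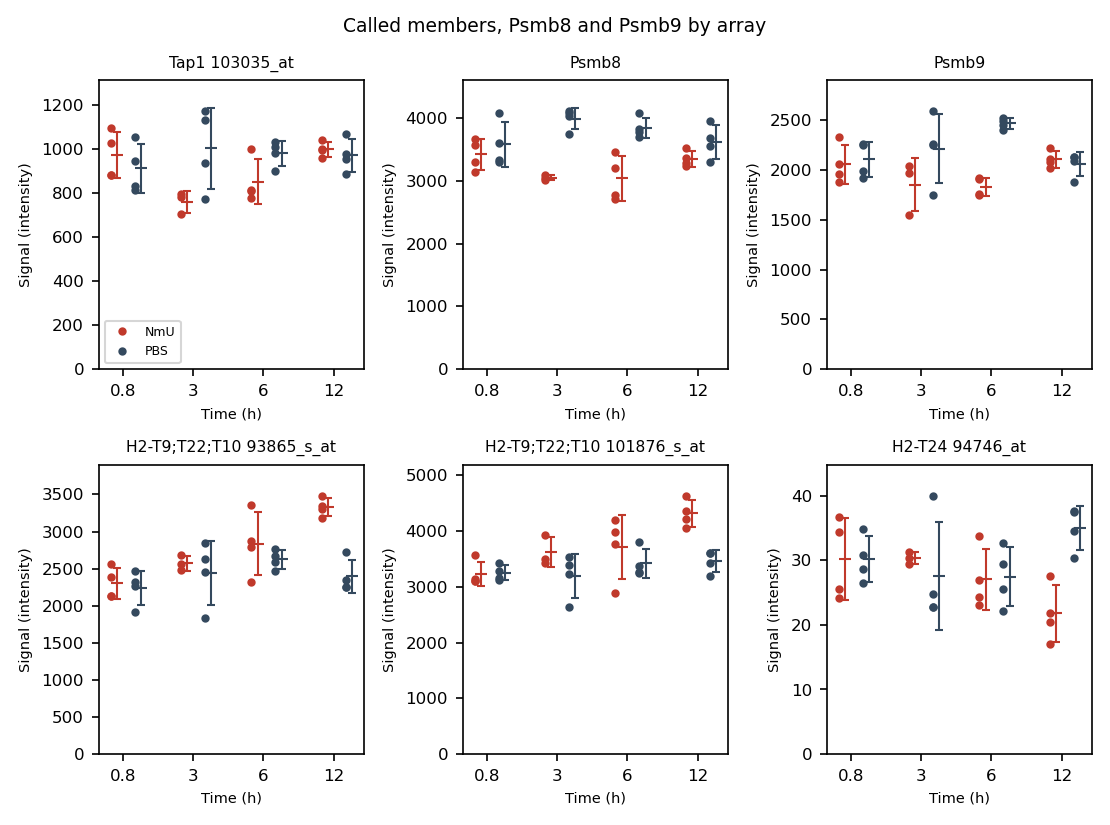
Signal on each array for Tap1, Psmb8, Psmb9, both probe sets shared by H2-T9, H2-T22 and H2-T10, and H2-T24, in deposited intensity units on linear axes from 0. Points are arrays, NmU left of PBS at each time, with means and SD beside them. Psmb8 is lower with NmU at 3 and 6 h, and both H2-T9, H2-T22 and H2-T10 probe sets are higher with NmU at 12 h, without overlap.

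The non-classical class I genes H2-T22 and H2-T10, known as ligands of some gamma-delta T cell receptors, share 2 probe sets with H2-T9, and the 3 genes cannot be told apart here. On 93865_s_at the signals at 12 h were 3348.7, 3188.7, 3300.4 and 3482.9 with NmU, against 2253.7, 2254.1, 2347.0 and 2725.5 with PBS. Every NmU array lay above every PBS array. This probe set rose by a log2 fold change of 0.48 (SE 0.12, adjusted p = 0.0322, limma), from means of 3330.2 ± 121.9 with NmU and 2395.1 ± 224.6 with PBS (SD, n = 4 each). The call held in 31 of 39 other settings. Leaving out PBS 12 h replicate 1, 2 or 3 ended it (adjusted p = 0.0961, 0.118 and 0.0905, limma) and so did leaving out NmU 12 h replicate 1, 2, 3 or 4 (0.0849, 0.0603, 0.0779 and 0.0967) or fitting only the 12 h groups (0.0927). Over all 39 other settings its log2 fold change lay between 0.43 and 0.54.

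The second probe set, 101876_s_at, read 4351.1, 4220.9, 4053.8 and 4631.0 with NmU at 12 h, against 3604.2, 3429.8, 3189.8 and 3603.6 with PBS. The groups again did not overlap, but its log2 fold change of 0.32 was not called (SE 0.10, adjusted p = 0.158, limma). At 0.8, 3 and 6 h the log2 fold changes were 0.04, 0.10 and 0.10 on 93865_s_at and -0.01, 0.19 and 0.10 on 101876_s_at, with overlapping ranges and no call. In NmU cells the means of 93865_s_at at 0.8, 3, 6 and 12 h were 2300.6, 2575.7, 2837.5 and 3330.2, and in PBS cells 2242.0, 2441.8, 2623.5 and 2395.1. Whether the NmU effect differed between times did not pass the F test (adjusted p = 0.301, limma).

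H2-T24, a non-classical class I gene of the same region, was the only one of the 44 called lower at 12 h. Its signals were 27.6, 17.1, 21.9 and 20.5 with NmU, against 37.5, 37.6, 34.6 and 30.4 with PBS, without overlap. The log2 fold change was -0.70 (SE 0.18, adjusted p = 0.0428, limma). These signals lie close to the filter at 20.3, and the call held in 17 of 39 other settings. It was lost in all 8 alternative ways of processing that kept every array, where adjusted p-values by limma lay between 0.0564 and 0.126, and on leaving out any 1 of 14 arrays, with adjusted p up to 0.171 (without NmU 12 h replicate 2). At 0.8, 3 and 6 h the log2 fold changes were -0.02, 0.18 and -0.02.

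At 12 h 6 other probe sets had an unadjusted p under 0.05 and were not called. The H2-T-ps and H2-T23 probe set read 668.8, 545.5, 651.8 and 596.5 with NmU, against 525.9, 458.0, 452.8 and 556.6 with PBS (log2 fold change 0.31, adjusted p = 0.162, limma). On H2-K1 the 3 probe sets differed in sign: 97125_f_at had 0.20, 97700_at -0.50 and 93120_f_at 0.02. At the other times, 97125_f_at (0.21) and H2-Ke6 (102992_at, -0.50) had an unadjusted p under 0.05 at 0.8 h, and so did H2-M10.1 (100303_at), which passed the filter only through the PBS 0.8 h group, so that its difference there is not read. At 6 h the second H2-M10.1 probe set (100304_at, 0.51) had an unadjusted p under 0.05. H2-M10 genes are known from the vomeronasal organ, and H2-Ke6 encodes a hydroxysteroid dehydrogenase, not an MHC chain.

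Among class II genes, H2-DMa and H2-Eb1 were nearest to a change, at 12 h, and neither was called. H2-DMa (93092_at), the alpha chain of the peptide exchange factor, read 132.7, 125.9, 118.0 and 120.7 with NmU, against 100.9, 47.5, 108.6 and 83.8 with PBS. The groups did not overlap, and the log2 fold change was 0.61 (SE 0.20, adjusted p = 0.171, limma). Its second probe set passed the filter only through the NmU 12 h group, so that its value there is not set beside the first. H2-Eb1, the beta chain of the H2-E molecule, read 82.5, 77.6, 47.3 and 80.1 with NmU, against 15.5, 25.3, 29.5 and 67.8 with PBS. Here PBS replicate 4 reached into the NmU range, and the log2 fold change of 1.24 had a wide 95% interval, from 0.17 to 2.3 (adjusted p = 0.347, limma). At 6 h the same probe set had -0.45, with 53.5, 21.4, 35.5 and 48.4 with NmU, against 67.0, 64.4, 24 and 66.8 with PBS. Within every group its lowest and highest arrays were far apart, in NmU 12 h and PBS 6 h through 1 array each (47.3 and 24).

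H2-Oa was lower with NmU at 3 h, at 59.1, 41.0 and 46.3, against 69.2, 65.2, 61.2 and 61.8 with PBS, without overlap and without a call (log2 fold change -0.41, adjusted p = 0.151, limma). Cd74, the invariant chain, had log2 fold changes of 0.12, -0.14, 0.08 and 0.06 at the 4 times. At 12 h it read 64.4, 65.2, 58.1 and 63.6 with NmU, against 61.9, 66.1, 65.2 and 49.7 with PBS, and the interval ran from -0.25 to 0.36. Ciita had 0.06, 0.03, -0.03 and 0.20, with an interval at 12 h of -0.37 to 0.78. Of the macrophage markers, Cd68 rose at 6 and 12 h, at 50 ± 2.75 with NmU and 34.5 ± 4.39 with PBS at 6 h and 50.4 ± 5.14 with NmU and 34.1 ± 9.94 with PBS at 12 h (SD, n = 4 each; adjusted p = 0.0369 and 0.0457, limma). These calls held in 28 and 14 of 39 other settings, with adjusted p up to 0.126 and 0.33. The other 6 tested macrophage markers and the 7 tested B cell and 5 tested dendritic cell markers were not called at any time. The part of Cd68 in the class II values was not tested.

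Several factors that act on MHC genes did change, the first of them at 0.8 h, when no MHC probe set was called. Of 29 regulators listed, 21 had a probe set with that symbol alone and 20 were tested, each on its brightest such probe set. The list was chosen with earlier results of these data known. Of the 20, 2 rose at 0.8 h, 3 rose and 2 fell at 3 h, and 1 fell at 6 h and at 12 h. Of all tested probe sets 0.783% rose at 0.8 h, 4.44% rose and 5.73% fell at 3 h, and 2.03% and 0.404% fell at 6 and 12 h. Irf1, an interferon regulatory factor that drives class I genes and Ciita, read 784.5, 812.4, 788.8 and 814.5 with NmU at 0.8 h, against 470.0, 487.7, 508.3 and 502.4 with PBS. The groups were far apart, with a log2 fold change of 0.70 (SE 0.11, adjusted p = 0.000221, limma). At 3, 6 and 12 h its values were -0.12, -0.06 and -0.09, none called, and the effect differed between times (adjusted p of the F test = 0.00296, limma). Interferon gamma (Ifng), the best known inducer of both classes, was at or below the floor on 29 of 31 arrays.

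Irf8, a factor of the same family, rose at 3 h, at 109.4, 99.2 and 108.4 with NmU, against 42.3, 43.6, 36.0 and 33.4 with PBS (log2 fold change 1.45, adjusted p = 9.78e-07, limma). Irf4 fell at 3 h, at 895.0, 736.8 and 722.6 with NmU, against 1345.8, 1097.5, 1272.0 and 1169.0 with PBS (-0.64, adjusted p = 0.00069, limma). Neither overlapped its PBS group at 3 h. Crem, a CREB family factor, rose at 0.8 h (0.71) and 3 h (1.34), with 567.6, 480.6 and 490.7 with NmU at 3 h, against 213.0, 171.5, 181.4 and 252.1 with PBS. Jak2, a kinase of the interferon gamma receptor, rose at 3 h, at 393.5, 376.9 and 373.6 with NmU, against 129.7, 180.2, 183.9 and 204.1 with PBS (1.15, adjusted p = 2.14e-05, limma). The acetyltransferase gene Kat2b fell at 3 h (-0.61, adjusted p = 0.00445, limma). Without PBS 3 h replicate 4 these 5 calls held, with log2 fold changes of 1.38 for Irf8, -0.66 for Irf4, 1.45 for Crem, 1.23 for Jak2 and -0.74 for Kat2b.

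Jak1, the partner kinase, fell at 6 h, at 461.5, 343.3, 351.2 and 470.0 with NmU, against 573.0, 609.4, 651.2 and 605.0 with PBS (-0.60, adjusted p = 0.0178, limma). At 12 h it read 512.6, 478.5, 385.1 and 402.6 with NmU, against 647.8, 586.3, 707.5 and 721.9 with PBS (-0.59, adjusted p = 0.0478, limma). Both times were without overlap. The 6 h call was lost without PBS 6 h replicate 3 (adjusted p = 0.0502), NmU 6 h replicate 2 (0.0613) or NmU 6 h replicate 3 (0.076, all limma), and with only the 6 h groups (0.0593). The 12 h call was lost on leaving out any 1 of 24 arrays, with adjusted p up to 0.167. It was also lost with no filter on dim probe sets (adjusted p = 0.0648, limma), with the replicate block (0.0988), with only the 12 h groups (0.126) and with median scaling (0.141). With only the 3 h groups in the limma fit, the calls of Irf4 and Kat2b were lost as well (adjusted p = 0.0617 and 0.15). The calls of Irf1, Crem, Irf8 and Jak2 held in all 39 other settings. The subunits of NF-Y that bind CCAAT (Nfya, Nfyb, Nfyc), Rela and the repressor Ezh2 were tested and not called at any time.

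**Figure D5:**
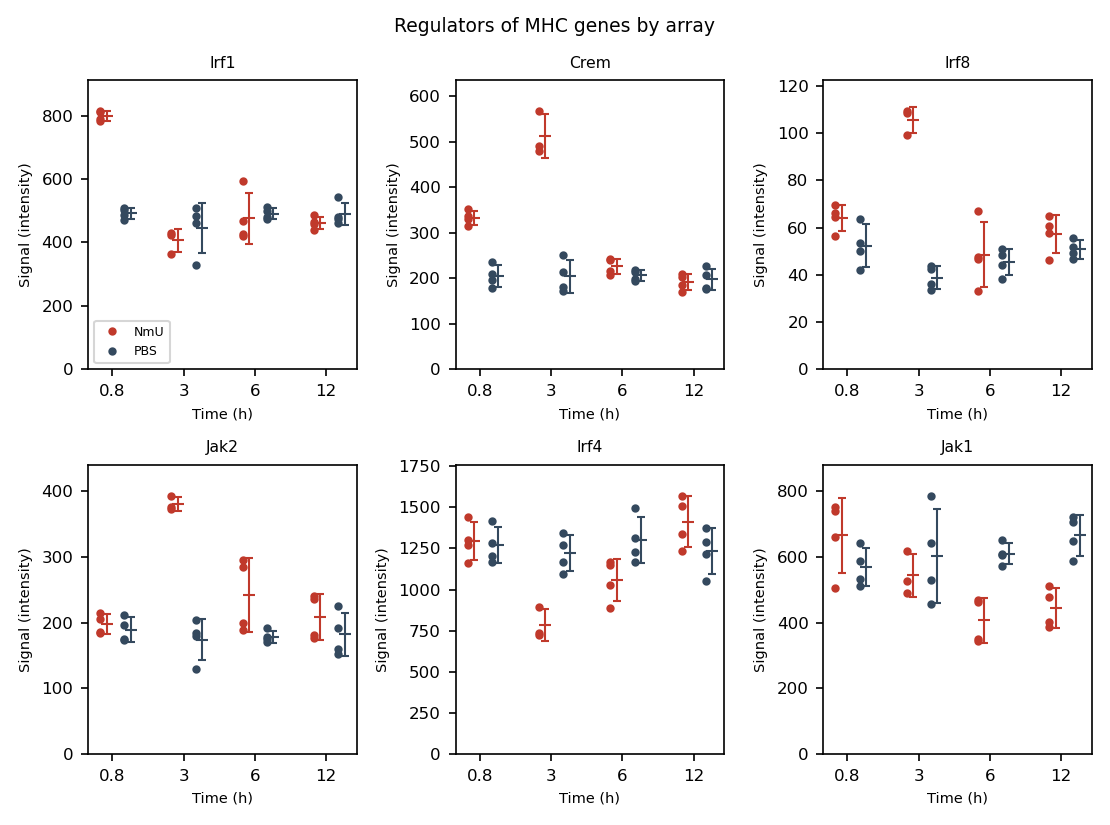
Signal on each array for the regulators Irf1, Crem, Irf8, Jak2, Irf4 and Jak1, in deposited intensity units on linear axes from 0. Points are arrays, NmU left of PBS at each time, with means and SD beside them; Irf1 is higher with NmU at 0.8 h, Irf8 and Jak2 at 3 h and Crem at both, while Irf4 is lower at 3 h and Jak1 at 6 and 12 h.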

How the data were processed

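Total RNA of 31 samples had been hybridised to 1 array each, and sample titles gave the groups and replicates. The deposited values are intensities of probe sets on a linear scale. Which scanner and probe summary the authors used is not given in the sources used here. Means of the 12422 non-control probe sets, trimmed by 2% at each end, lay between 148 and 149 on all arrays, so the intensities were used as deposited. The floor took in 15.4% to 24.1% of an array. It understates dim changes. The 66 array controls were left out. Gene symbols came from the platform annotation, where 10833 probe sets have 1 symbol, 396 several and 1193 none, and the 47 members with 1 symbol matched RefSeq by Entrez number with 0 changes. The members and gene lists were chosen with earlier results of these data known.

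All 31 arrays entered 1 model with a mean for each of 8 groups (lmFit and eBayes of limma 3.58.1, R 4.3.3; 23 residual degrees of freedom). Two-sided tests compared NmU with PBS at each time, beside moderated F tests, with Benjamini-Hochberg adjustment over 7922 probe sets. Errors are limma's SE or the SD of signals. The procedure was tested on simulated data. Repeating the alternatives for genes of the pathway and marker lists was chosen after seeing the data. Every probe set of the rule could be named, with called or lowest-p genes of each pathway list and all measured markers.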

Additional observations from a re-analysis of the deposited data

Results flagged for a closer look

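Among 308 groups of 4 arrays of tested probe sets, 19 held an array whose gap to the nearest other exceeded Dixon's 95% critical value of 0.829 times the range. Chance alone gives about 1 in 20 groups. No cause of any of these was tested.

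In class I partners these were Tap1 in NmU 6 h replicate 2 (1002.4, against 777.7 to 815.7 on the others), Tapbp 100154_at in NmU 0.8 h replicate 3 (2505.2) and Tapbp 102689_at in NmU 12 h replicate 4 (653.9). In class II they were H2-Eb1 in NmU 12 h replicate 3 (47.3) and PBS 6 h replicate 3 (24, against 64.4 to 67.0 on the others), H2-DMb1 in PBS 12 h replicate 2 (57.5) and Ciita in PBS 3 h replicate 4 (36.2). Among dim class I probe sets they were H2-K1 97700_at in NmU 12 h replicate 4 (54.5), H2-M10.1 100303_at in NmU 0.8 h replicate 4 (24.4) and NmU 6 h replicate 2 (23.2), and H2-M10.1 100304_at in PBS 3 h replicate 4 (54.8). The list goes on with H2-Q10 in NmU 12 h replicate 2 (96.7), H2-M3 102730_at in PBS 6 h replicate 3 (29.7), H2-M3 102731_g_at in PBS 6 h replicate 1 (189.0) and H2-T24 in PBS 3 h replicate 1 (40). Among brighter class I probe sets they were H2-T9, H2-T22 and H2-T10 101876_s_at in NmU 0.8 h replicate 2 (3562.5), the 102161_f_at family set in NmU 12 h replicate 3 (5304.4), H2-Q4 in PBS 6 h replicate 1 (1367.7) and H2-T23 with H2-T-ps in PBS 0.8 h replicate 3 (450.5).

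The effect of NmU differed between the 4 times for 7 of the 20 regulators tested and for 0 of the 44 tested MHC probe sets, against 4.04% of all tested probe sets. The regulator list was chosen with earlier results of these data known. Its 7 of 20 therefore does not measure how regulators as a kind behave. Adjusted p-values of limma's F test were 2.9e-05 for Crem, 0.00108 for Irf8, 0.00296 for Irf1, 0.00967 for Irf4, 0.0112 for Kat2b, 0.0144 for Jak2 and 0.0431 for Jak1.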

How the results depend on the processing

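No call at a single time changed direction in any setting run, Cd68 and the regulators included; the signs of the bright class I probe sets did, with 2 to 9 of 15 positive at 6 h over the settings that kept every array. The count of MHC probe sets called stayed at 0 at 0.8 h, at 6 h and for time in PBS in every setting, and the count for an effect that differed between times stayed at 0 except without PBS 3 h replicate 1, where it was 1 (H2-T24). At 3 h the count was 1, and it was 0 with no filter on dim probe sets, with arrays scaled to a common median and with only the groups compared. At 12 h the count was 2. It was 1 with the floor at the 40th percentile, with log2(signal + 20), with no filter, with median scaling, with quantile normalisation, with a trend and robust eBayes, with the replicate block and with single-symbol members only, and 0 with only the groups compared. For a change at any time the count was 0. It was 1 with the floor at the 40th percentile, with log2(signal + 20) and with a trend and robust eBayes, the H2-T9, H2-T22 and H2-T10 probe set each time, and 2 with the replicate block, which added Tap1. At 3 h the block leaves PBS replicate 4, which has no NmU array of its number, without weight in the comparison. Tap1 at 3 h therefore had -0.50 with the block, the value found without that array.

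Leaving out 1 array at a time gave 0 to 2 calls at 3 h, 0 to 2 at 12 h, 0 to 3 for any time (3 on leaving out PBS 3 h replicate 4, and 2 for NmU 6 h replicate 4 or PBS 3 h replicate 1) and 0 to 1 for a difference between times. In the class medians, that of class I at 6 h moved to -0.13 under median scaling and that of class II at 12 h to 0.03 with no filter, and leaving out 1 array put class I medians between -0.10 and 0.06 and class II medians between -0.21 and 0.29. Over all 7922 probe sets, only the groups compared gave 171 calls at 3 h in place of 806, 164 at 6 h in place of 387 and 56 at 12 h in place of 100. The correlations did not settle whether replicate numbers pair the samples. Of 15 same-numbered pairs, 5 correlated above 0.1 (from -0.22 to 0.21), and 7 of the 15 NmU arrays correlated best with their own number. Each had 4 PBS arrays of its time to match, so that some best matches arise by chance alone. With only the groups compared no F test across times was run, and with the replicate block none for time in PBS. Dim signals limit class II most, since 6 of its 14 probe sets could not be tested.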
